A study of Mus musculus with 20 samples.

Results

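The transforming growth factor-beta (TGF-beta) receptors and Smad genes described here are 9 genes, Tgfb1, Tgfbr1, Tgfbr2, Smad2, Smad3, Smad4, Smad7, Ski and Skil, taken by name from the 25246 genes counted in single thymic intraepithelial lymphocyte precursors (IELPs). No threshold on a measured value was used to choose them. They and the gene lists used below were chosen with earlier results of these data known, so shares called among them are not independent of these data. The cells were CD4-CD8- (DN) TCRαβ+ NK1.1- thymocytes, the population that gives rise to natural CD8αα+ intraepithelial lymphocytes of the gut, and all came from mice on a C57BL/6 background that carried the T-bet ZsGreen reporter (TBGR). The deposited design text writes NK1.1+ for these cells, whereas the study's methods sorted against NK1.1. They came from 3 genotypes: TBGR of 4 weeks labelled wild type, TBGR of 2 weeks with floxed alleles of C-myc (C-mycfl/fl), and TBGR C-mycD/DCd4 of 2 weeks in which a Cd4-Cre transgene deleted the floxed C-myc. The design text names 1 TBGR and 1 C-mycD/DCd4 animal, the number of C-mycfl/fl animals is not stated in the labels, and the study's text on the C-myc experiment speaks of mice in the plural. Each genotype is called a mouse below, with that reserve. The sorted stages were cells with neither protein (CD122-T-bet-, called CD122- below), cells with CD122 alone (CD122+T-bet-), and CD122+ cells with an intermediate (T-bet int) or a high (T-bet high) level of the reporter. CD122 is the IL-2/IL-15 receptor beta chain and T-bet is a transcription factor of cytotoxic lineages. From the C-mycD/DCd4 mouse only cells without T-bet were sorted. The study addressed the order of these stages and the part of C-Myc in the appearance of T-bet, and the comparisons below follow those steps and that deletion.

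TGF-beta1, the product of Tgfb1, is secreted in a latent form and binds a receptor pair once it is released. TGF-beta receptor type II (Tgfbr2) binds the ligand and phosphorylates the type I receptor (Tgfbr1), which phosphorylates Smad2 and Smad3, and these enter the nucleus with the common partner Smad4. Smad7 blocks the type I receptor, whereas Ski and SnoN (Skil) hold Smad complexes in a repressive state. In T cells the pathway is known to restrain effector genes and to promote the gut-homing integrin chain CD103, and it is known to be needed for CD8αα+ intraepithelial lymphocytes.

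The sequences just upstream of the receptor genes are shown because both receptor genes were among those called between the C-mycD/DCd4 and C-mycfl/fl mice. They come from RefSeq on build GRCm38.p6, hold the 250 bases before the annotated start, and are written 5′ to 3′ on the strand of the gene. Of the 9 genes, 5 had an entry in the promoter table. Capitals mark matches on either strand to CCAAT (or ATTGG), the GC box GGGCGG (or CCGCCC), the E-box CACGTG bound by Myc with Max, and the Smad box CAGAC (or GTCTG).
Tgfbr1, chr4:47352972-47353221, plus strand: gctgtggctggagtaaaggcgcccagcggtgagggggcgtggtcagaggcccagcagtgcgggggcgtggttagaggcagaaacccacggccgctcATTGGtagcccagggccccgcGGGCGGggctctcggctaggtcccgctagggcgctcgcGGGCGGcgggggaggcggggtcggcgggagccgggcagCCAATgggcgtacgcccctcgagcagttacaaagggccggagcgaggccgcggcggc
Tgfbr2, chr9:116175364-116175613, minus strand: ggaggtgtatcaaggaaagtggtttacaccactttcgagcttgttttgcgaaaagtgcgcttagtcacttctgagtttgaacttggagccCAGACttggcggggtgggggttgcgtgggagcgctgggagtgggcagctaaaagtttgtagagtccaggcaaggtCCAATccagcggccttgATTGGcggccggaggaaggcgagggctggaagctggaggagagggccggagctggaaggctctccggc
The Tgfbr1 window was 74.8% G and C and held 2 CCAAT matches and 2 GC boxes, without an E-box or a Smad box. The Tgfbr2 window was 58.4% G and C and held 2 CCAAT matches and 1 Smad box, without an E-box or a GC box. Over all 32851 windows of this length in the table, 33.8% held CCAAT, 32.7% the GC box, 6.02% CACGTG and 42.2% CAGAC. Tgfbr1 has a further annotated start on the same chromosome, and the reads counted here do not tell the starts apart because they come from the 3′ end of the transcripts.

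Expression was measured by CEL-Seq2, which counts transcripts from their 3′ ends with molecular barcodes. In all 20 libraries 1413 of 1920 sorted cells held at least 2000 transcripts, and 22 to 94 such cells stood behind each population of a library. The TBGR and C-mycD/DCd4 mice gave 2 libraries per population, and the C-mycfl/fl mouse gave 4, each shared by a pair of populations. Population totals ran from 699596 to 1468961 transcripts, so that 3 transcripts, the least count read as a level here, corresponded to 2.04 to 4.29 CPM, the number of transcripts of a gene per 1000000 transcripts of the population. The smallest library part was CD122+T-bet- library 4 of the C-mycfl/fl mouse with 94268 transcripts, and the TBGR T-bet high library 2 kept 55 of 96 cells. The well barcodes are each used in more than 1 library, as the plates were built. Genes of αβ T cells were present in each population at a summed 3608 to 7165 CPM, Il2rb (CD122) was at 2.61 to 9.88 CPM in the CD122- gates and at 222 to 515 CPM in the CD122+ gates, and Tbx21 (T-bet) was highest in each T-bet high gate. No label ties a library to an animal of its own, so libraries of one population were not taken as separate animals and no comparison below carries a test or a p-value. Intervals are exact 95% intervals and cover counting error only.

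A gene was called between populations if it had at least 50 transcripts over both, if its log2 ratio differed by at least 1 from the median log2 ratio of all genes meeting that minimum, and if its library values did not overlap. Log2 ratios are given after subtraction of that median and are named centred. Where libraries are said not to overlap without a call, the share of all genes that separate was not counted. With 2 libraries per population such a separation can arise by chance, so it is given as a value only. Myc itself, the deleted gene, was at 44.5 and 9.96 CPM in the CD122+T-bet- libraries of the C-mycD/DCd4 mouse, against 73.8, 125, 135 and 10.6 CPM in those of the C-mycfl/fl mouse. In CD122- cells it was at 16.7 and 30.0 CPM, against 63.0, 14.0, 62.3 and 24.4 CPM. Its level was lower in the C-mycD/DCd4 sums by 1.95 and 0.74 on the log2 scale respectively, but the libraries overlapped in both gates and Myc was not called. Which part of the gene is removed is not given in the sources used here, so a tag at the 3′ end may not check the deletion.

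The receptors, Smad4, Smad7 and Skil were higher in CD122+T-bet- cells of the C-mycD/DCd4 mouse than in those of the C-mycfl/fl mouse. Of the 9 genes 8 met the minimum and 5 of them were called, all 5 higher. Among all 4201 genes in this comparison 18.3% were called and 10.4% were called higher. The median centred log2 ratio of the 8 genes was 1.11, and that of all genes is 0 by construction. In this gate the TBGR mouse stood at 72.8 CPM for Tgfbr1, 67.4 for Tgfbr2, 85.1 for Smad4, 61.3 for Smad7 and 40.8 for Skil. The C-mycD/DCd4 levels were 64.2, 90.7, 93.5, 85.1 and 58.6 CPM and the C-mycfl/fl levels 25.1, 26.4, 30.4, 18.5 and 26.4 CPM. Genes of αβ T cells were at 4764 to 6188 CPM in the C-mycD/DCd4 and 2610 to 4665 CPM in the C-mycfl/fl libraries. Genotype, animal and library cannot be told apart here.
Tgfbr2, which binds the ligand, stood at 85.8 and 94.6 CPM in the C-mycD/DCd4 libraries and at 27.7, 17.8, 31.6 and 31.8 CPM in the C-mycfl/fl libraries. Every library of the first mouse lay above every library of the second, and the pooled level was 3.38-fold higher (log2 ratio 1.76, interval 1.04 to 2.58, centred 1.64). Tgfbr1, the signalling receptor chain, was at 82.6 and 49.8 CPM against 27.7, 17.8, 31.6 and 21.2 CPM. The groups did not overlap, with a pooled 2.52-fold difference (log2 ratio 1.33, interval 0.56 to 2.21, centred 1.21). The receptor transcripts were thus higher in both C-mycD/DCd4 libraries, on 46 and 65 transcripts against 19 and 20.
Among the Smads, the 2 that receptors phosphorylate did not follow. Smad2 was at 31.8 and 37.3 CPM against 41.5, 40.1, 31.6 and 10.6 CPM (centred log2 ratio -0.10), and the libraries overlapped. Smad3 was at 34.9 and 52.3 CPM against 36.9, 53.4, 40.6 and 0 CPM (centred 0.10), again with overlap. Their counting intervals for the log2 ratio reached from -0.83 to 0.87 for Smad2 and from -0.55 to 0.999 for Smad3. The log2 ratio of Tgfbr2, 1.76, lay outside both. These intervals leave out the spread between libraries and animals, so they cannot exclude such a difference between the mice. Smad4, the common partner, was at 60.3 and 119.5 CPM against 23.0, 53.4, 18.0 and 21.2 CPM. Its higher value came from library 2 of the C-mycD/DCd4 mouse, and the pooled difference was 3.04-fold (log2 ratio 1.60, interval 0.92 to 2.37, centred 1.48).
Of the inhibitors, Smad7 showed the largest ratio of the 9 genes, with 82.6 and 87.1 CPM in the C-mycD/DCd4 libraries and 9.22, 26.7, 18.0 and 21.2 CPM in the C-mycfl/fl libraries. The groups were far apart and the pooled level was 4.48-fold higher (log2 ratio 2.16, interval 1.35 to 3.16, centred 2.04). Skil was at 50.8 and 64.7 CPM against 23.0, 40.1, 13.5 and 31.8 CPM, 2.19-fold higher (centred 1.01), which is just past the size needed for a call. Ski, in contrast, overlapped between the mice at 73.0 and 92.1 CPM against 59.9, 66.8, 103.8 and 31.8 CPM (centred 0.11). Tgfb1, the ligand, was below the minimum with 17 against 10 transcripts, and its libraries lay at 19.1 and 27.4 CPM against 9.22, 22.3, 9.02 and 10.6 CPM.

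**Figure D1:**
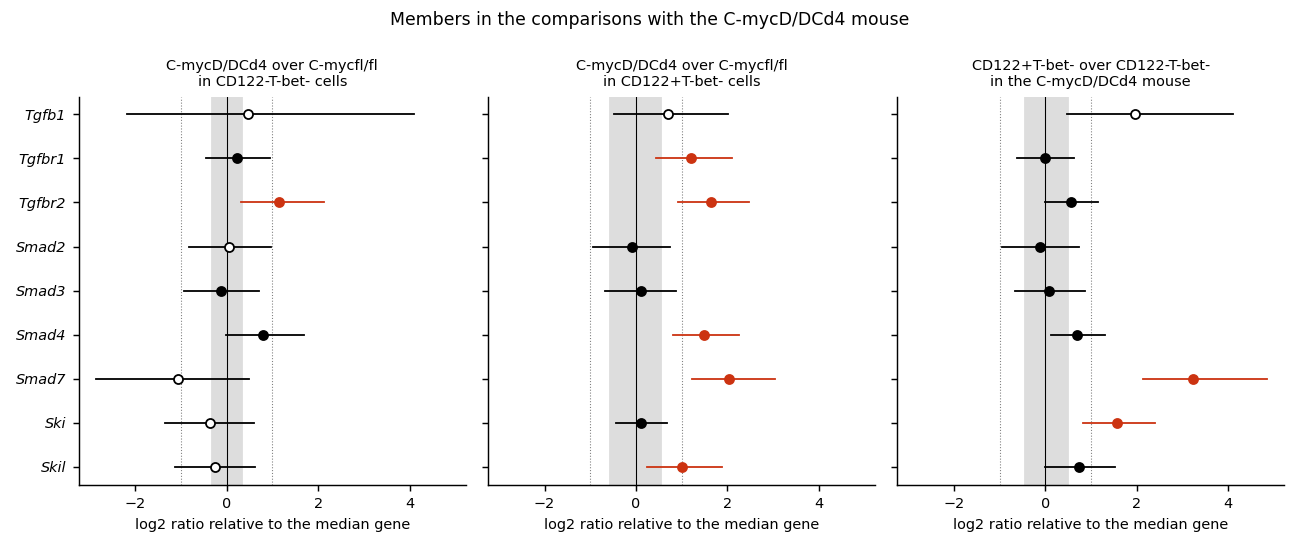
Centred log2 ratio of each gene, C-mycD/DCd4 over C-mycfl/fl, in CD122- and CD122+T-bet- cells. The last panel gives CD122+T-bet- over CD122- cells within the C-mycD/DCd4 mouse. Points are pooled ratios with 95% counting intervals, red marks genes called, open points have fewer than 50 transcripts over both groups, dotted lines lie at -1 and 1, and the grey band holds the middle of all genes tested from the lower to the upper quartile. Between the mice in CD122+T-bet- cells, Tgfbr1, Tgfbr2, Smad4, Smad7 and Skil lie past 1 while Smad2, Smad3 and Ski lie near 0.

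Markers of other cell types differed between the same gates. Summed transcripts of regulatory T cell markers were at 273 to 279 CPM in the C-mycD/DCd4 libraries and at 46.1 to 194 CPM in the C-mycfl/fl libraries, with 6 of 6 markers seen in each and Foxp3 at 23.7 and 25.1 CPM. Gamma delta T cell markers were at 724 to 754 CPM against 131 to 567 CPM, with Trdc at 212 against 9.24 CPM, Trdv4 at 0 in both and Tcrg-V6 at 0 in the C-mycfl/fl cells. B cell markers were at 111 to 510 CPM against 75.7 to 117 CPM, with Ms4a1 at 51.6 against 2.64 CPM and Cd79a at 23.7 CPM against 0 transcripts. NKT cell markers were at 219 to 284 CPM against 104 to 171 CPM, but their members differed in direction. Slamf6 (180 against 72.6 CPM) and Cd1d1 (53.0 against 11.9 CPM) were higher. Zbtb16 (16.7 against 39.6 CPM) and Il17rb (5.58 against 14.5 CPM) were lower, and Trav11 was at 0 in both. CD4+CD8+ thymocyte markers were at 62.2 to 69.9 CPM against 10.6 to 59.9 CPM. Myeloid markers were at 222 to 391 CPM against 162 to 240 CPM, with Csf1r and Itgax at 0 in both. The part of the B cell, NKT cell, thymocyte and myeloid transcripts in the result was not tested.
Without the cells that held a transcript of a regulatory T cell marker (84 of 137 and 44 of 122), the centred log2 ratios were 1.46 for Tgfbr1, 1.97 for Tgfbr2, 1.78 for Smad4, 2.24 for Smad7 and 1.34 for Skil. Without those that held a gamma delta T cell transcript (83 of 137 and 48 of 122), they were 1.0005, 1.78, 0.97, 2.33 and 1.31. In each setting all 5 genes were below the minimum of 50 transcripts (14 against 9 for Tgfbr1 and 31 against 14 for Tgfbr2 in the first, for example), so none could be called there and the ratios are given as values. Both settings were added after the data were seen. The median cell held 4921 transcripts in the C-mycD/DCd4 and 5984 in the C-mycfl/fl mouse. The C-mycD/DCd4 arm rests on 2 libraries: without library 1 the calls were Tgfbr2 and Smad4 among 4 genes over the minimum, and without library 2 a single gene reached the minimum and 0 were called. Without C-mycfl/fl library 2 Tgfbr1 stood at 0.97, and without library 1 or 3 Skil stood at 0.88 or 0.69.

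In the CD122- gate fewer of the genes could be read, since 4 of 9 met the minimum. Tgfbr2 was the gene called, with 63.6 and 53.6 CPM in the C-mycD/DCd4 libraries against 24.2, 14.0, 17.8 and 18.3 CPM in the C-mycfl/fl libraries. The mice did not overlap and the pooled level was 3.04-fold higher (log2 ratio 1.60, interval 0.76 to 2.59, centred 1.15). That is 1 of 4 genes, while 4.51% of 3677 genes were called and 3.32% were called higher. Smad4 was also higher in both libraries at 56.9 and 51.4 CPM against 29.1, 23.3, 17.8 and 18.3 CPM, with a centred log2 ratio of 0.79. Tgfbr1 was at 60.2 and 60.0 CPM against 48.5, 41.9, 48.9 and 0 CPM (centred 0.23), and the 0 is that of library 4. Smad3 overlapped (centred -0.12). In the same gate the TBGR mouse stood at 87.7 CPM for Tgfbr2 and 75.5 CPM for Smad4. Genotype, animal and library cannot be told apart in this comparison either.
The median of all genes lay at a log2 ratio of 0.46 here, so the centring bears on these values: with no centring Tgfbr2 and Smad4 were both past the size of a call, at 1.60 and 1.25. Without cells with a regulatory T cell transcript the centred ratio of Tgfbr2 was 0.97 on 24 against 8 transcripts, and without cells with a gamma delta T cell transcript it was 0.77 on 9 against 9, both below the minimum, so it could not be called there. Without library 1 or library 2 of the C-mycD/DCd4 mouse Tgfbr2 was below the minimum. CD4+CD8+ thymocyte markers were at 694 to 846 CPM in the C-mycD/DCd4 libraries against 237 to 476 CPM, with all 8 seen in both. NKT cell markers were at 174 to 194 against 60.5 to 145 CPM and B cell markers at 114 to 157 against 24.4 to 79.1 CPM, with Trav11 and Cd79a at 0 in both, and the part of these transcripts in the result was not tested.

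Within the C-mycD/DCd4 mouse, Smad7 and Ski were called higher in CD122+T-bet- than in CD122- cells, 2 of the 8 genes that met the minimum. Of all 4211 genes 18.6% were called and 10.5% called higher, and the median of the 8 genes was 0.63. Smad7 was at 6.69 and 8.57 CPM in the CD122- libraries and at 82.6 and 87.1 CPM in the CD122+T-bet- libraries, a 10.1-fold difference on 6 against 61 transcripts (log2 ratio 3.34, interval 2.24 to 4.94, centred 3.24). Ski was at 16.7 and 32.2 CPM in the former and at 73.0 and 92.1 CPM in the latter, 3.15-fold higher (log2 ratio 1.66, interval 0.93 to 2.49, centred 1.56). Both genes were thus low before and high after the gain of CD122 in each library.
The receptors and Smad4 stood closer together at this step. The centred log2 ratio was 0.00 for Tgfbr1, 0.56 for Tgfbr2 and 0.70 for Smad4, with the last 2 higher in both libraries. Smad2 (-0.11) and Smad3 (0.09) overlapped, Skil was at 0.74, and Tgfb1 had 17 against 4 transcripts.
Without cells with a gamma delta T cell transcript Ski had 23 against 9 transcripts (centred 0.36) and Smad7 24 against 1. Without cells with a regulatory T cell transcript Ski had 24 against 10 (centred 1.57) and Smad7 27 against 1. Both genes were thus below the minimum in both settings and could not be called, and no ratio is given for Smad7 over 1 transcript. With library 2 of CD122+T-bet- left out, 3 genes reached the minimum and 0 were called, without library 1 Smad7 was below the minimum, and without library 1 of the CD122- cells 3 genes were called. Transcripts of CD4+CD8+ thymocyte markers were at 694 to 846 CPM in the CD122- libraries and at 62.2 to 69.9 CPM in the CD122+T-bet- libraries, with Rag2 and Ptcra at 0 in the latter. Regulatory T cell markers were at 46.8 to 154 CPM before and at 273 to 279 CPM after the gain of CD122, and myeloid markers at 46.8 to 53.6 and 222 to 391 CPM. Of the myeloid list, Fcer1g was at 2.61 and 187 CPM, H2-Aa at 2.61 and 54.4 CPM and Cst3 at 39.2 and 68.4 CPM. Cd68 was at 2.61 and 1.40 CPM. These values, like those of Fcer1g and H2-Aa in CD122- cells, lay under the 3 transcripts read as a level, or 3.92 and 4.19 CPM here. Csf1r and Itgax were at 0 in both. The part of the thymocyte and myeloid transcripts in the result was not tested.

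**Figure D2:**
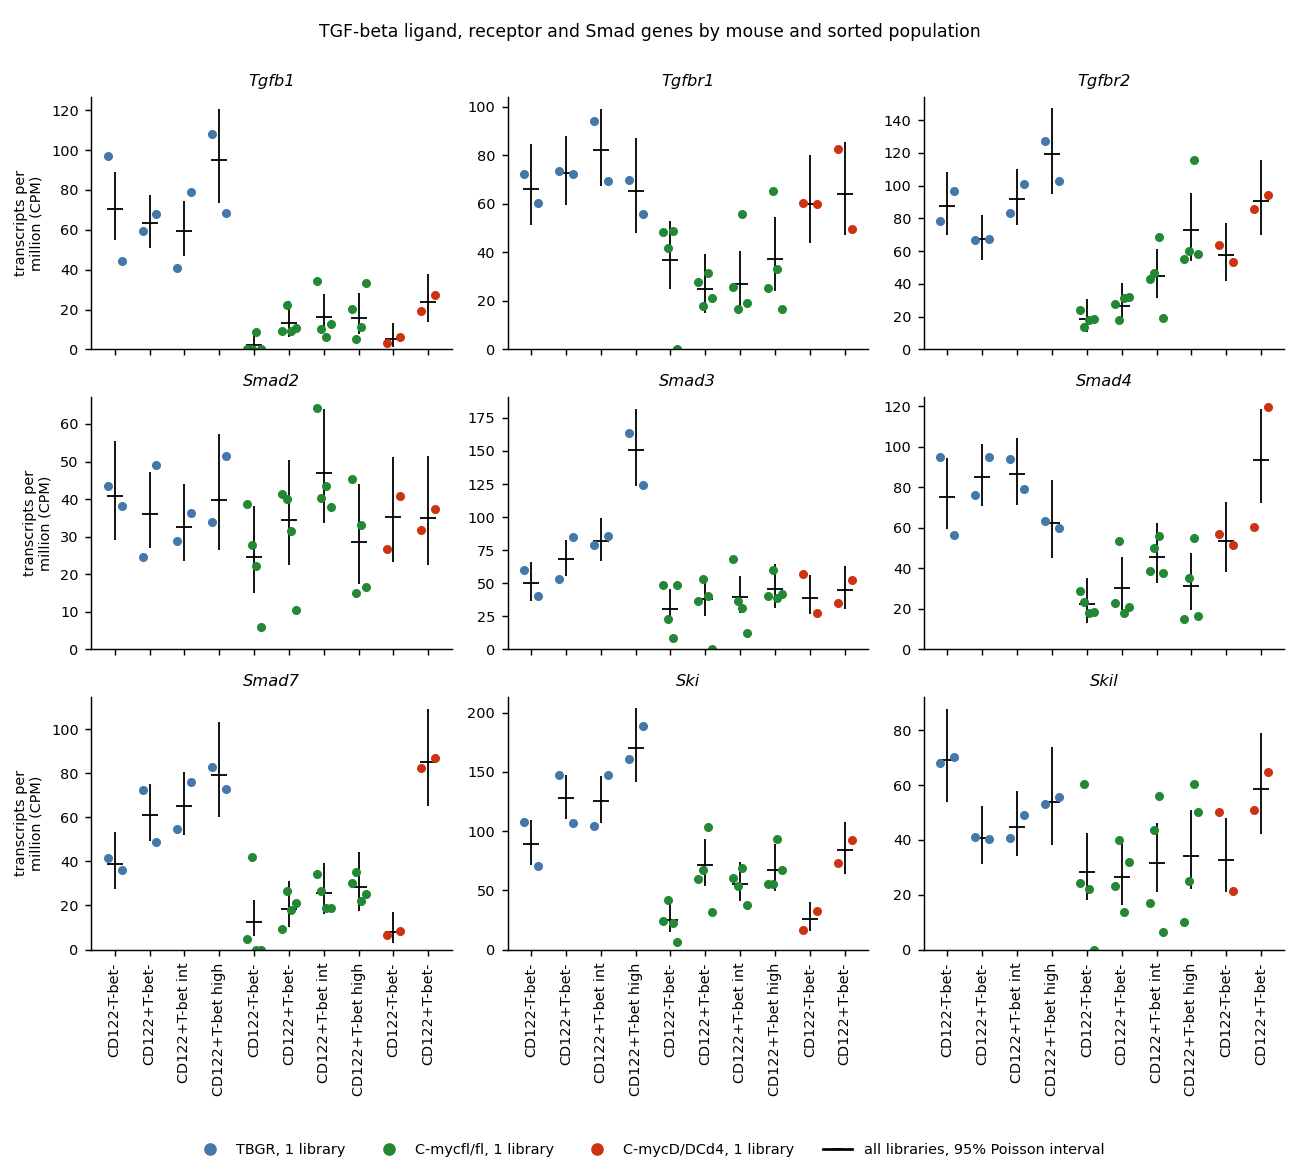
Level of each of the 9 genes in CPM (linear axes from 0) in the 10 populations of the TBGR, C-mycfl/fl and C-mycD/DCd4 mice. Points are libraries and black bars are pooled levels with 95% Poisson intervals; Smad7 rises from 7.84 to 85.1 CPM between the C-mycD/DCd4 populations, and Smad3 is highest in the TBGR T-bet high cells at 150 CPM.

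In the TBGR mouse the gain of CD122 went with a lower level of Skil. Skil was at 68.2 and 70.5 CPM in CD122- cells and at 41.3 and 40.4 CPM in CD122+T-bet- cells (log2 ratio -0.76, interval -1.29 to -0.24, centred -1.03), and the libraries of a population differed by far less than the populations. It was the 1 gene called of 9, where 12.2% of 6531 genes were called and 5.14% called lower. The call was lost without CD122+T-bet- library 1 or CD122- library 2 (centred -0.99 and -0.91) and without cells with a regulatory T cell transcript (-0.40). The regulatory T cell list was at 131 to 232 CPM in the CD122- libraries and at 134 to 317 CPM in the CD122+T-bet- libraries. CD4+CD8+ thymocyte markers were at 636 to 773 CPM before and at 95.1 to 135 CPM after the gain of CD122, and their part in the result was not tested. With no centring, Skil was at -0.76 and not called, since the median of all genes was 0.26.
Both receptors were read on 65 transcripts or more in each of these populations. Tgfbr2 was at 78.6 and 96.7 CPM in CD122- and at 67.1 and 67.8 CPM in CD122+T-bet- cells (centred -0.65), lower in both libraries but short of a call. Tgfbr1 was at 72.4 and 60.4 against 73.5 and 72.1 CPM (centred -0.13). Smad7 was at 41.3 and 36.2 CPM before and at 72.2 and 49.0 CPM after the gain of CD122 (centred 0.39), without overlap, whereas Tgfb1, Smad2, Smad3, Smad4 and Ski overlapped between the libraries, with centred ratios between -0.45 and 0.26.
From CD122+T-bet- to T-bet int, 0 of 9 genes were called, against 6.81% of 7063 genes. Tgfbr2 was the 1 gene of 9 with separate libraries, at 83.3 and 101.2 CPM in T-bet int cells (centred 0.44). The share of all genes with separate libraries was not counted. The other 8 lay between -0.16 and 0.26.

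From T-bet int to T-bet high, 0 of 9 genes were called again, against 16.3% of 5833 genes, but Smad3 stood just under the size of a call. Smad3, one of the Smads that receptors phosphorylate, was at 78.8 and 85.4 CPM in T-bet int and at 163.4 and 124.2 CPM in T-bet high cells. The 4 libraries did not overlap and the pooled level was 1.83-fold higher (log2 ratio 0.87, interval 0.47 to 1.28, centred 0.98). With a minimum of 100 transcripts or with cells of at least 1000 transcripts its centred ratio was 1.01, and without T-bet high library 2 or T-bet int library 2 it was 1.05 or 1.02, past the size of a call in each case. Tgfb1 was at 108.2 and 68.5 CPM in T-bet high and at 40.9 and 79.1 CPM in T-bet int cells, with overlap (centred 0.78).
The remaining ratios were smaller. Ski was at 161.2 and 188.5 CPM in T-bet high cells against 104.5 and 147.0 CPM (centred 0.55), and Tgfbr2 was at 127.3 and 102.8 CPM against 83.3 and 101.2 CPM (centred 0.48), both without overlap. Smad4 was on the other side at 63.6 and 60.0 CPM against 93.9 and 79.1 CPM (centred -0.36). Skil (0.38) was higher in both T-bet high libraries, and Tgfbr1 (-0.22), Smad2 (0.40) and Smad7 (0.40) overlapped. Transcripts of Klrb1c, which encodes NK1.1, were at 563 CPM in the T-bet high and at 39.5 CPM in the T-bet int cells although NK1.1 was sorted against. The median depth per cell was 4309 against 6348 transcripts. CD4+CD8+ thymocyte markers were at 36.1 to 278 CPM in the T-bet high and 41.1 to 42.4 CPM in the T-bet int libraries. NKT cell markers were at 82.7 to 94.2 against 253 to 289 CPM and B cell markers at 158 to 168 against 255 to 289 CPM. Myeloid markers were at 253 to 397 against 427 to 456 CPM and gamma delta T cell markers at 544 to 728 against 492 to 552 CPM. The part of these transcripts and of depth in the result was not tested.

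**Figure D3:**
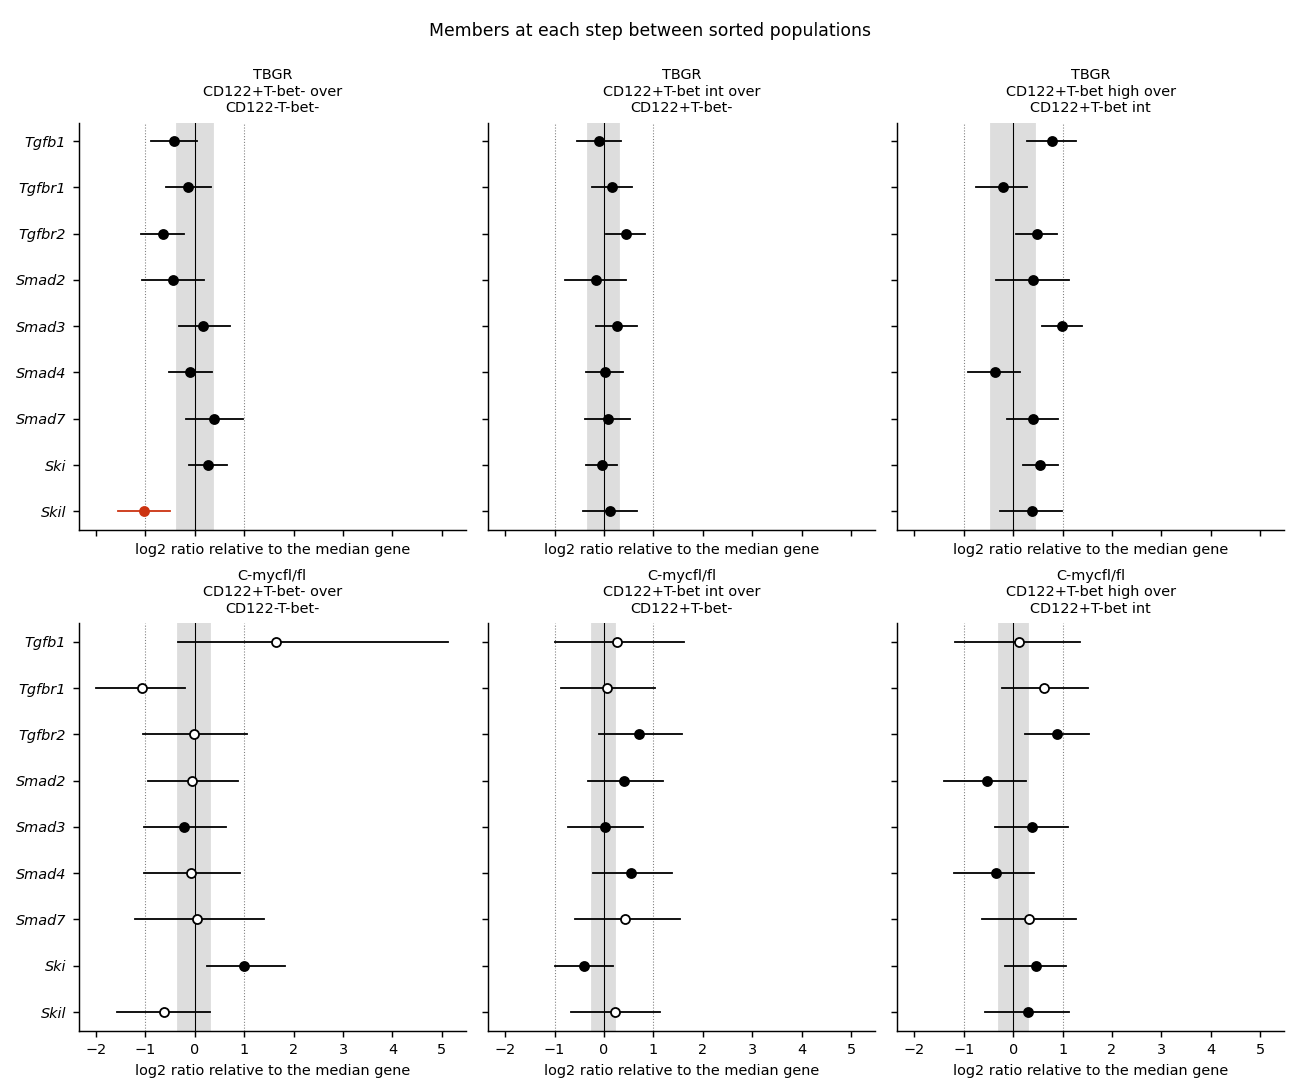
Centred log2 ratio of each gene at each step, in the TBGR mouse and in the C-mycfl/fl mouse. Points carry 95% counting intervals, red marks a gene called, open points have fewer than 50 transcripts over both groups, dotted lines lie at -1 and 1, and the grey band holds all genes tested from the lower to the upper quartile. Skil at -1.03 in the first TBGR step is the gene called, and Smad3 at 0.98 in the last TBGR step and Ski at 0.99 in the first C-mycfl/fl step lie beside the dotted line.

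In the C-mycfl/fl mouse both populations of a step were sorted into the same libraries for the first and for the last step, so the ratio could also be read within each library. At the first step 2 of 9 genes met the minimum and 0 were called, against 3.6% of 3662 genes. Ski was at 24.2, 41.9, 22.2 and 6.10 CPM in CD122- and at 59.9, 66.8, 103.8 and 31.8 CPM in CD122+T-bet- cells. It was higher in 4 of 4 libraries, by log2 ratios of 0.64 to 2.12, but the values of different libraries overlapped, and the pooled difference was 2.84-fold (interval 0.77 to 2.35 on the log2 scale, centred 0.99). Without library 2 Ski was called (centred 1.58). The 8 markers of CD4+CD8+ thymocytes summed to 237 to 476 CPM in CD122- and to 10.6 to 59.9 CPM in CD122+T-bet- libraries, and their part in these differences was not tested. Smad3 was at a centred -0.21. Tgfb1 had 2 transcripts in all CD122- cells, which is under the 3 read as a level, and 10 after the gain of CD122.
At the second step, from CD122+T-bet- to T-bet int, 0 of 5 genes over the minimum were called, against 0.617% of 4217 genes, and 4 of the 5 had centred ratios of 0.02 to 0.71 (Tgfbr2 the highest) and Ski one of -0.40. Without library 2 of the T-bet- libraries Smad4 (0.55 with all libraries) was called at 1.03. From T-bet int to T-bet high, 0 of 6 were called, against 3.29% of 3987 genes. Tgfbr2 was at 42.9, 46.9, 68.4 and 19.0 CPM in T-bet int and at 55.4, 60.1, 115.6 and 58.4 CPM in T-bet high cells. It was higher in T-bet high cells of 4 of 4 libraries, by log2 ratios of 0.36 to 1.498 within a library (centred 0.88 for the pooled ratio). Smad2 and Smad4 were lower in T-bet high cells in 4 of 4 libraries, with pooled centred ratios of -0.52 and -0.35, while Smad3 and Ski were higher in 3 of 4.

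The levels of the C-mycfl/fl and TBGR mice are given side by side only, since age, genotype and sequencing between them cannot be told apart. Tgfb1 was at 40.9 to 108.2 CPM over the 8 TBGR libraries and at 0 to 34.3 CPM over those of the C-mycfl/fl mouse. All 9 genes together made up 588, 623, 670 and 836 CPM in the TBGR populations from CD122- to T-bet high. The corresponding sums were 201, 284, 334 and 362 CPM in the C-mycfl/fl mouse and 317 and 579 CPM in the CD122- and CD122+T-bet- cells of the C-mycD/DCd4 mouse.
Ordered over the 10 populations, Tgfb1, Tgfbr2, Smad3 and Ski were highest in TBGR T-bet high cells, at 95.1, 119, 150 and 170 CPM, and lowest in C-mycfl/fl CD122- cells, at 2.47, 18.5, 30.9 and 24.7 CPM. Smad4 and Smad7 were highest in C-mycD/DCd4 CD122+T-bet- cells, at 93.5 and 85.1 CPM, and Smad7 was lowest in the CD122- cells of that mouse at 7.84 CPM. Tgfbr1 ran from 25.1 CPM in C-mycfl/fl CD122+T-bet- to 82.0 CPM in TBGR T-bet int cells, Smad2 from 24.7 to 47.0 CPM within the C-mycfl/fl mouse, and Skil from 26.4 CPM to 69.4 CPM in TBGR CD122- cells. Neighbours in these orders overlapped between libraries in 9 of 9 pairs for Tgfbr1 and Smad2, in 8 of 9 for Smad3 and Smad4, and in 7 of 9 for the rest.

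Per cell the genes were seen sparsely. After each cell was thinned to 2000 transcripts, Tgfbr2 was seen in 11.3% to 18.1% of cells in the TBGR populations, in 1.64% to 15.2% in the C-mycfl/fl populations and in 9.38% and 11.7% in those of the C-mycD/DCd4 mouse. Before thinning the shares were 28.2% to 45.6%, 11.7% to 30.4%, and 26.6% and 30.7%. Smad7 was seen in 16.8% of thinned C-mycD/DCd4 CD122+T-bet- cells (interval 11.0% to 24.1%), against 4.10% in C-mycfl/fl CD122+T-bet- cells (1.34% to 9.31%) and 2.34% in C-mycD/DCd4 CD122- cells (0.486% to 6.70%). Ski was seen in 36.1% of thinned TBGR T-bet high cells (28.3% to 44.4%) and in 16.4% of TBGR T-bet int cells (11.2% to 22.8%), but without thinning the shares were 49.0% and 48.5%.
Transcripts of both receptors in the same cell were found, without thinning, in 8.62% to 21.1% of TBGR cells by population, in 1.67% to 8.04% of C-mycfl/fl cells, and in 10.2% and 8.03% of CD122- and CD122+T-bet- C-mycD/DCd4 cells. Such cells numbered 15, 26, 36 and 18 in the TBGR populations, where the product of the single shares gives 13.8, 24.5, 29.2 and 13.1. In the C-mycfl/fl populations they numbered 2, 4, 4 and 9, against 2.45, 2.09, 5.24 and 6.98. In the C-mycD/DCd4 populations they numbered 13 and 11, against 8.23 and 11.0. Median depth ran from 4238.5 to 7073.5 transcripts per cell over the populations, and its part in these shares was not tested. The median cell showed 1 to 3 of the 9 genes. The 1920 barcodes to which no cell was sorted held 26 transcripts of the 9 genes, or 13.5 per 1000 barcodes, against 3198 per 1000 cells.

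**Figure D4:**
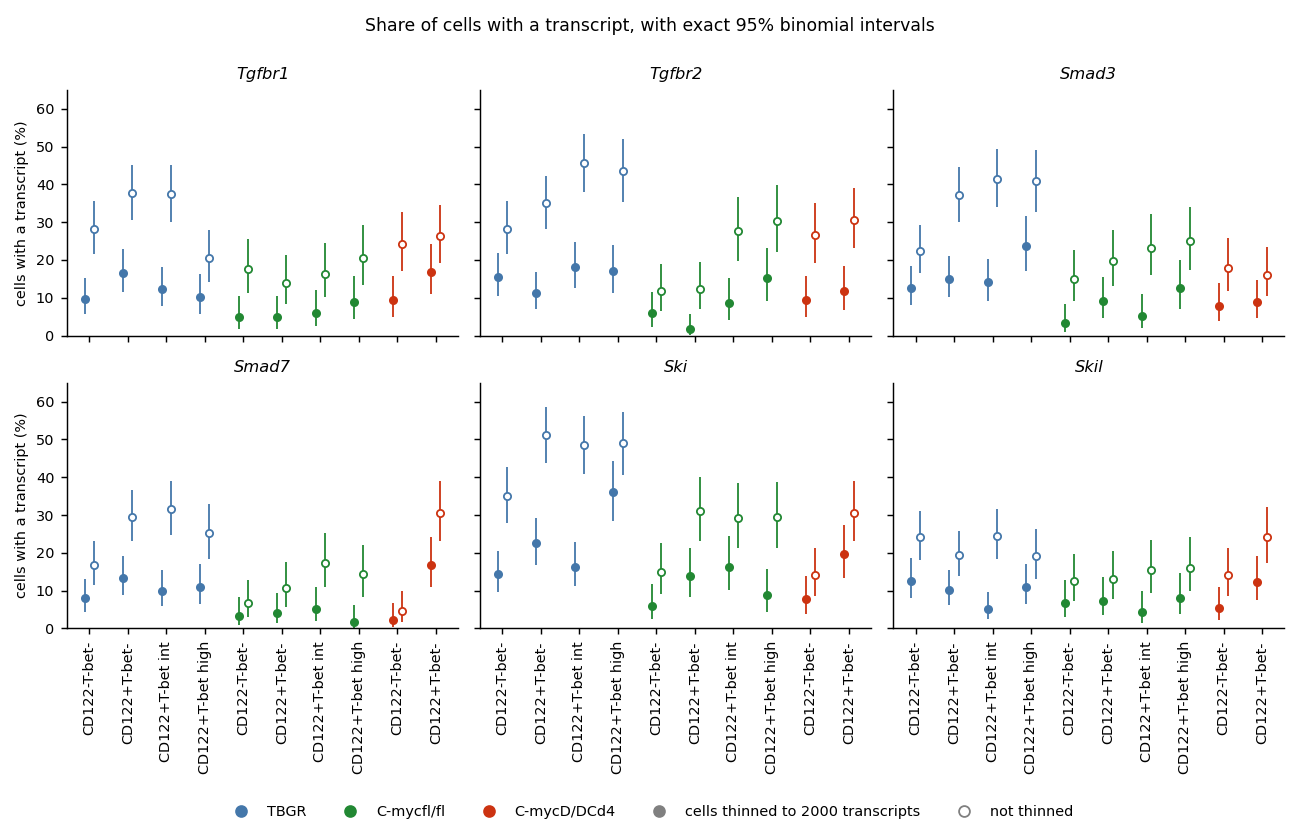
Percent of cells with at least 1 transcript of Tgfbr1, Tgfbr2, Smad3, Smad7, Ski and Skil by population, with exact 95% binomial intervals. Filled points are shares after thinning to 2000 transcripts per cell, and open points are shares without thinning. After thinning, Smad7 is seen in 16.8% of C-mycD/DCd4 CD122+T-bet- cells and in 2.34% of the CD122- cells of that mouse, and Ski in 36.1% of TBGR T-bet high cells.

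The rest of the pathway was read from lists of its parts. The lists held 93 genes, of which 90 were found, and shares of all genes called in each comparison are those given above. Of 6531, 7063 and 5833 genes in the TBGR steps, 463, 178 and 464 were called higher and 336, 303 and 485 lower. Of 3662, 4217 and 3987 genes in the C-mycfl/fl steps, 96, 18 and 73 were called higher and 36, 8 and 58 lower. The TAK1 branch, which links the receptors to MAP kinases, had 0 of 2 or 3 tested genes called in each comparison. In the first TBGR step 3 of 4 tested genes of ligand activation were higher: Itgb8, the integrin chain that releases latent TGF-beta (centred 3.43), the protease Furin (1.23) and Itgav, the partner of Itgb8 (1.17), with a list median of 1.20. Tgfbr3, the co-receptor betaglycan and the single other receptor tested, was lower at 8.85 against 39.8 CPM (centred -2.40). Of 6 other Smads and partners 0 were called, and of 10 regulators of turnover Usp11 was higher (1.12). At the next step Itgb8 was lower again (-2.04, 1 of 4 tested), as was Tgif1, a Smad corepressor (-1.07, 1 of 6), and the ligase Wwp1 was higher (1.19, 1 of 11). At the last step 0 of 2 genes of ligand activation were called, Sptbn1, a Smad adaptor, was lower (-2.06, 1 of 4) and Pmepa1, which sequesters receptor-activated Smads, was higher (2.28, 1 of 11) at 155 against 34.0 CPM.
In the C-mycfl/fl mouse few genes of these lists met the minimum: at each step 1 gene of ligand activation, 0 other receptors, 4 other Smads and partners and 6 to 8 turnover genes were tested, and 0 were called. Between the mutant and the floxed mouse in CD122- cells, 0 were called of 1, 0, 4 and 7 tested genes of the same lists, nor of 3 tested genes known to be raised and 5 known to be held down by TGF-beta. In CD122+T-bet- cells 3 of 9 tested turnover genes were called, with Pmepa1 higher at 92.1 against 25.1 CPM (1.73), the deubiquitinase Usp11 higher (1.10) and Fkbp1a, which binds the type I receptor, lower (-1.06). Within the C-mycD/DCd4 mouse Sptbn1 (1.24, 1 of 4) and the ubiquitin ligase Smurf2 (1.33) were higher and the deubiquitinase Uchl5 lower (-1.67) after the gain of CD122, the last 2 among 10 turnover genes.

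Genes known to be raised by TGF-beta held Smad7, Skil and Ski of the 9 genes themselves. In CD122+T-bet- cells of the C-mycD/DCd4 mouse 6 of 8 tested genes of that list were higher than in the C-mycfl/fl mouse (median 1.18), with Cd8a at 2.53, Smad7 at 2.04, Pmepa1 at 1.73 and Itgae at 1.26 as the largest. Of these 6, Smad7, Skil and Pmepa1 were already counted above. Within the C-mycD/DCd4 mouse 5 of 7 were higher after the gain of CD122 (median 1.46), led by Smad7 (3.24), the AP-1 factor Junb (2.01), Ski (1.56) and the E-protein inhibitor Id3 (1.46). In the TBGR mouse Itgae, which encodes CD103 (2.32), and Id3 (1.64) were higher and Skil lower (-1.03) of 11 tested at the first step. At the second step Cd8a was higher (2.02) and Foxp3 (-3.36) and Tgif1 lower of 10. At the last step Pmepa1 and Itgae (1.84) were higher and Id3 (-5.11) and Cd8a (-1.80) lower of 8. In the C-mycfl/fl mouse Id3 was higher at the first step (1.33, 1 of 3), 0 of 4 were called at the second, and at the last step Itgae was higher (1.58) and Id3 lower (-1.61) of 6.
Genes known to be held down by TGF-beta in T cells did not follow a single direction. At the last step 4 of 8 were higher in the TBGR mouse (median 1.43): the granzymes Gzma (6.15) and Gzmb (5.96), the cytokine Ifng (3.37) and Tbx21 (1.88), the last being the gene of the sort. The same 4 were called higher of 8 in the C-mycfl/fl mouse, at 3.78, 2.97, 3.24 and 1.82. At the first step Myc was higher (1.71) and Gzma (-5.25) and Gata3 (-1.25) lower of 5 in the TBGR mouse, and Gzma was lower (-5.38, 1 of 5) in the C-mycfl/fl mouse. At the second step Tbx21 was higher in the TBGR mouse (4.82, 1 of 5) and 0 of 5 were called in the C-mycfl/fl mouse. Gata3 was higher in C-mycD/DCd4 than in C-mycfl/fl CD122+T-bet- cells (1.18, 1 of 5). Within the C-mycD/DCd4 mouse the cell cycle gene Ccnd2 was higher (2.68) and Cdc25a (-1.80), Gzma (-1.75) and Gata3 (-1.27) lower after the gain of CD122, which are 4 of 4 tested.

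For the 5 genes with at least 500 transcripts in all, the genes of most similar pattern were sought over the 28 values of population and library among 2769 genes. The genes most like Tgfbr2 included Tnfaip3 (Pearson's r = 0.87) and Ssh2 (0.84), and Tgfbr1 was closest to Helz (0.86), Slk (0.84) and Son (0.84). Smad4 was closest to Ddx5 (0.85), Clk1 (0.85) and Rbm5 (0.84), Smad3 to Hsbp1 (0.84), Nek7 (0.81) and Gmip (0.81), and Ski to Lrrfip1 (0.91), the predicted gene Gm9844 (0.89) and Peli1 (0.89). The receptors correlated with each other at 0.60, which put Tgfbr2 at rank 469 of the genes ordered by likeness to Tgfbr1. These values share libraries, mice and depth, so the correlations are descriptions. Tgfb1, Smad2, Smad7 and Skil had too few transcripts for this.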

How the data were processed

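Single thymocytes were sorted into wells of 384-well plates and sequenced by CEL-Seq2. The authors assigned reads with bcl2fastq 2.17.1.14, aligned them with BWA 0.6.2-r126 to the GENCODE VM9 transcriptome in the sense direction, discarded multimapping reads, merged loci overlapping by over 75% and counted 6-base molecular barcodes. The deposited values are expected counts of transcripts per gene and well, corrected by the authors for barcode collisions and not normalized, and they were rounded here to whole transcripts. Populations were read from the deposited well descriptions. Cells with at least 2000 transcripts without mitochondrial and spike-in rows were kept, transcripts were summed per population and library, and levels are CPM of that total. Log2 ratios used a pseudocount of 0.5 transcripts on each sum and were centred on their median over genes that had 50 or more transcripts in the groups combined. The 9 comparisons carry no test, because no label ties libraries to separate animals. No doublet caller was run, since cells were sorted singly.

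The 9 genes were given by name. The members and lists were chosen with earlier results of these data known. All 9 genes are named, from each pathway list the called genes up to the 4 largest ratios per comparison, and for likeness the 3 highest correlations of log2(CPM + 10) for genes with at least 500 transcripts; a gene among these is not reported here. Alternatives were another pseudocount, minimum, cell threshold and weighting, thinning, no centring, the values as deposited, leaving out each library, and leaving out cells with transcripts of other T cell types. The procedure was tested on simulated data with counting error alone and planted changes larger than the size of a call. That simulation does not cover spread between libraries or animals, nor changes near the size of a call. Analyses used Python 3.11.15 with numpy 2.4.6, scipy 1.17.1 and pandas 2.3.3.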

Additional observations from a re-analysis of the deposited data

Results flagged for a closer look

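In the groups of 4 libraries of the C-mycfl/fl mouse, 7 of 36 gene and population groups held 1 library far from the other 3 by Dixon's criterion, where chance gives about 1 in 20 groups of continuous values. That rate does not hold for counts near 0. In T-bet high cells these were Tgfbr2, at 115.6 CPM in 1 library against 55.4, 58.4 and 60.1 CPM, and Smad3, at 60.1 CPM against 38.5, 40.3 and 41.7 CPM. In CD122+T-bet- cells they were Tgfb1, at 22.3 CPM against 9.02, 9.22 and 10.6 CPM, and Smad4, at 53.4 CPM against 18.0, 21.2 and 23.0 CPM. In CD122- cells Tgfb1 was at 8.90 CPM in 1 library, on 2 transcripts, which is under the 3 read as a level, and at 0 in the other 3, Tgfbr1 was at 0 in 1 library against 41.9, 48.5 and 48.9 CPM, and Smad7 was at 41.9 CPM against 0, 0 and 4.85 CPM.

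The step from CD122- to CD122+T-bet- went in opposite directions between mice for 2 genes, without a test of the difference and before centring. In the TBGR and C-mycD/DCd4 mice the populations lay in different libraries, and a direction means that these did not overlap. In the C-mycfl/fl mouse it means the same sign within every shared library. Tgfbr2 had a log2 ratio of -0.38 in the TBGR mouse, 0.50 in the C-mycfl/fl mouse and 0.65 in the C-mycD/DCd4 mouse. After centring these were -0.65, -0.02 and 0.56, so the opposite direction in the C-mycfl/fl mouse, on 15 against 20 transcripts and below the minimum, was lost. Skil had one of -0.76 in the TBGR mouse and 0.83 in the C-mycD/DCd4 mouse, or -1.03 and 0.74 after centring. These are 3 of 54 pairs of effects examined, and the share over all genes was not taken.

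In barcodes to which no cell was sorted, 5 transcripts of Tgfbr1, 5 of Ski and 4 of Skil were found over all 1920 such barcodes, above the limit of 3 that a count of 0 allows.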

How the results depend on the processing

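No gene that was called changed its direction under any alternative in which its ratio was read. A ratio was read where the gene met the minimum. For the pair that left out cells with transcripts of other T cell types it was also read below the minimum. In the TBGR mouse the 1 call of the first step fell to 0 with a pseudocount of 5, with no centring, with cells thinned to 2000 transcripts and with cells weighted equally, and counts without one library lay between 0 and 1. The second step gave 0 without any one library. The third step gave 1 call, Smad3, in place of 0 with a minimum of 100 transcripts and with cells of at least 1000 transcripts, and 0 to 2 without one library, where the second call was Tgfb1 without T-bet int library 2. In the C-mycfl/fl mouse counts without one library were 0 to 1 at the first and second step and 0 at the third. Between C-mycD/DCd4 and C-mycfl/fl CD122- cells the 1 call fell to 0 with a pseudocount of 5, with a minimum of 100 and with thinning, rose to 2 with no centring and with equal weights, and was 0 to 1 without one library. In CD122+T-bet- cells the 5 calls fell to 0 with a minimum of 100 or thinning, where 1 and 0 of the genes met the minimum, and to 2, Tgfbr2 and Smad7, with equal weights, with 0 to 5 without one library. Between the C-mycD/DCd4 populations the 2 calls fell to 0 with a minimum of 100 or thinning, and counts without one library lay between 0 and 3. Over the alternatives in which it was read, the centred ratio in CD122+T-bet- cells lay between 0.88 and 1.46 for Tgfbr1 and 1.38 and 1.97 for Tgfbr2. It lay between 0.97 and 1.94 for Smad4, 1.73 and 2.33 for Smad7, and 0.60 and 1.34 for Skil. These ranges leave out thinning, the minimum of 100 and the libraries whose removal put the gene below the minimum. Skil lost its call under 10 of 15 alternatives, not counting the pair that left out cells with transcripts of other T cell types. The share of cells with a transcript of any of the 9 genes was 59.6% thinned and 83.8% not thinned. Counts over all genes depended on the transcripts required. For the steps of the TBGR mouse, those of the C-mycfl/fl mouse, the genotypes in CD122- and in CD122+T-bet- cells and the step of the C-mycD/DCd4 mouse, in that order, 799, 481, 949, 132, 26, 131, 166, 769 and 784 genes were called. With a minimum of 20 the counts were 1479, 990, 1666, 278, 75, 241, 444, 1278 and 1559, with a minimum of 100 they were 392, 231, 523, 68, 8, 62, 76, 427 and 407, and after thinning 239, 144, 307, 45, 10, 37, 85, 283 and 229. With no centring 479 genes were called between the genotypes in CD122- cells and 238 in the first C-mycfl/fl step, and equal weights gave 260 in the former. Without library 4 of its T-bet- libraries the first C-mycfl/fl step gave 242 calls, and without 1 of 3 libraries the second gave 41, 43 or 46. With no centring the share of calls that were higher was 78.6% in place of 57.9% in the first TBGR step, 86.6% in place of 72.7% and 38.7% in place of 55.7% in the first and last C-mycfl/fl steps, and 96.0% in place of 73.5% between the genotypes in CD122- cells. No paired test was run, since no result comes from a test. Calls in the C-mycfl/fl mouse did not use the pairing of populations within shared libraries, and ratios within those libraries are given beside them. Most values rest on under 100 transcripts, which limits what these libraries can show.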

Other observations

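Itgae, which encodes the integrin chain CD103 that binds E-cadherin on epithelium, differed between populations in each mouse. It was at 12.4 and 6.04 CPM in the CD122- libraries of the TBGR mouse, at 60.6 and 54.8 CPM in CD122+T-bet-, at 95.5 and 104 CPM in T-bet int and at 352 and 296 CPM in T-bet high cells. The libraries of each population lay above those of the one before it. In the C-mycfl/fl mouse the pooled levels were 8.64, 21.1, 43.5 and 116 CPM in the same order. Its libraries overlapped at the first and second step, at 0 to 14.5 CPM in CD122-, 10.6 to 31.6 CPM in CD122+T-bet- and 6.33 to 67.0 CPM in T-bet int cells. The first step rested on 7 against 16 transcripts, below the minimum of 50. The T-bet high libraries lay at 90.7 to 170 CPM, above the T-bet int libraries. In the C-mycD/DCd4 mouse 1 transcript was found in CD122- cells and 40 in CD122+T-bet- cells, where the libraries lay at 69.9 and 44.8 CPM.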
